A study of Homo sapiens with 6 samples.

Results

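The data described here are the γH2AX peaks of DLD1 cells without UNG after pemetrexed, set against those after cisplatin. They are all rows of 2 deposited peak lists, 5278 peaks from the pemetrexed library and 4570 from the cisplatin library, 9848 of the 12579 peaks in the 4 lists of the series. DLD1 is an established human colorectal cancer line, and both libraries came from its UNG knockout (KO, UNG-/-) derivative, immunoprecipitated with the same antibody against phosphorylated H2AX. The study also holds wild-type (WT, UNG+/+) cells with the same drugs, used here only for comparison, and an untreated library of each genotype, not analysed here. Each group had 1 library. The sources used here do not state drug doses, exposure times or the number of knockout clones. The design asked where in the genome each drug places γH2AX, and within the knockout the 2 drugs differ by treatment alone as far as the labels say.

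γH2AX is the histone variant H2AX phosphorylated by the kinases that respond to DNA damage. It spreads over chromatin around a double strand break, so a region found by chromatin immunoprecipitation and sequencing marks the neighbourhood of breaks or stalled forks, not a break at base resolution. Pemetrexed is an antifolate that blocks thymidylate synthesis, which depletes thymidine nucleotides and lets uracil enter DNA during replication. UNG is the glycosylase that cuts out this uracil, and cells without it keep more of it. Cisplatin crosslinks purine bases, mostly neighbouring guanines, and its adducts are handled chiefly by nucleotide excision and crosslink repair.

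Each list gives a chromosome, a start and an end in hg18 for every peak, with no height, score or read count. The read depth of both libraries is therefore unknown, and so is the control each list was called against. A deeper library or another control can change how many peaks are called and how wide they are. There is no replicate check on any difference below, and the 95% intervals in parentheses after shares and ratios (exact, Clopper-Pearson) cover counting error only and treat peaks as independent. No value below is a test of the conditions. Of the peaks, 5272 pemetrexed and 4562 cisplatin peaks lay on chromosomes 1 to 22, X and Y, and analyses of place, spacing and overlap used these. The lists name no genes and no annotation of hg18 was used, so regions are given by position.

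The pemetrexed peaks were wider than the cisplatin peaks along the whole range of widths, and most of all among the widest. The pemetrexed list held 1.15 times as many peaks (1.11 to 1.202) and covered 8.97 Mb against 3.99 Mb, 2.24 times as many bases. Mean width was 1699 bp after pemetrexed and 874 bp after cisplatin. At the narrow end the lists were close, with 10% of peaks at or under 781 bp for pemetrexed and 597 bp for cisplatin, a ratio of 1.31. The medians were 1172 and 813 bp, a ratio of 1.44. At the 90th percentile the widths were 3133 and 1219 bp (2.57 times), and at the 99th 7927 and 1978 bp (4.01 times). The gap between the drugs thus widened toward the broad end of the distribution.

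**Figure D1:**
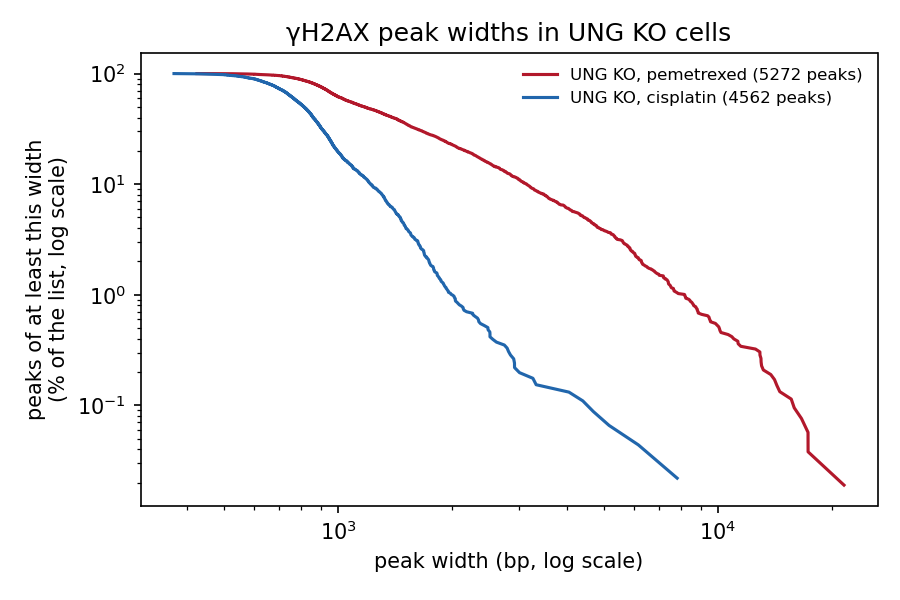
Share of each list's placed peaks (y axis, percent, log scale) that are at least as wide as the value on the x axis (bp, log scale), for the KO pemetrexed list (red) and the KO cisplatin list (blue). The curves start together near the narrowest peaks and part steadily, so that 22.6% of pemetrexed and 0.985% of cisplatin peaks reach 2 kb.

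Peaks of at least 1 kb made up 61.9% of the pemetrexed list (60.5 to 63.2%) and 19.6% of the cisplatin list (18.4 to 20.7%). Those of at least 5 kb numbered 201 and 3. At 10 kb or more there were 27 pemetrexed peaks, and 0 of 4570 cisplatin peaks, which allows a share of up to 0.0656%. The widest 10% of the pemetrexed peaks (528 peaks) held 30.7% of that list's bases, and the widest 10% of the cisplatin peaks (457) held 18.3%. The greater width was found on every autosome. The pemetrexed median exceeded the cisplatin median on 22 of 22, by 1.18 times on chromosome 18 at the least and 1.67 times on chromosome 8 at the most. Autosomal medians ranged from 742 to 853 bp after cisplatin and from 919 to 1339 bp after pemetrexed, so the ranges did not overlap.

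The widest peaks of the drugs lay in different surroundings. After pemetrexed the 5 widest spanned 15871 to 21459 bp, on chromosomes 10, 17, 19, 20 and 22. Each had 25 to 51 other pemetrexed peaks within 500 kb of its edges, the nearest 1.15 to 10.8 kb away, and 6 to 17 cisplatin peaks within the same distance. The peak on chromosome 19 (hg18, 18738924 to 18755509) had the most, 51 pemetrexed and 17 cisplatin neighbours. After cisplatin the 5 widest spanned 4407 to 7807 bp. They lay on chromosome 2 (132745257 to 132753064), chromosome 8 (43211544 to 43216711), chromosome 16 (33771965 to 33776372) and at 2 places on chromosome Y (27193420 to 27199590 and 27207097 to 27211796). As background, the places on chromosomes 8 and 16 are close to the centromere and those on chromosome Y border the heterochromatin of its long arm. Each of these 5 had 2 or 3 other cisplatin peaks and 0 pemetrexed peaks within 500 kb. The nearest pemetrexed peak was 1.14 Mb away on chromosome 2, 2.64 Mb on chromosome 16 and 5.35 Mb on chromosome 8, and chromosome Y held none.

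Among all peaks of 2 kb or more, most pemetrexed peaks also had cisplatin peaks nearby. Of the 1194 placed pemetrexed peaks of this width, 84.8% (82.6 to 86.8%) had a cisplatin peak within 100 kb, and 0.168% (2 peaks) had none within 1 Mb. Of the 45 such cisplatin peaks, 42.2% (27.7 to 57.8%) had a pemetrexed peak within 100 kb and 31.1% (18.2 to 46.6%) had none within 1 Mb. Peaks under 2 kb differed between the drugs in the same direction, with 74.99% of pemetrexed and 45.6% of cisplatin peaks within 100 kb of the other drug, and 0.711% and 24.1% with none within 1 Mb. The contrast was therefore one of the whole lists and not of broad peaks alone. Broad pemetrexed peaks were commoner near chromosome ends than narrower ones. Of those of 2 kb or more, 57.4% (54.5 to 60.2%) lay within 5 Mb of an end, against 30.9% (29.5 to 32.4%) of those under 2 kb. For cisplatin the corresponding numbers were 9 of 45 peaks (9.58 to 34.6%) and 19.1% (17.9 to 20.2%). An end was the outermost position reached by a peak of the 4 lists, at both sides of a chromosome, or at the far side alone on the acrocentric chromosomes 13, 14, 15, 21 and 22.

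By chromosome, pemetrexed peaks were the more unevenly spread. A chromosome was counted as higher in one drug where its share of that list was at least 1.5 times its share of the other. Of the 24 chromosomes, 4 were higher in pemetrexed (16.7%) and 10 in cisplatin (41.7%). The 4 were chromosomes 19 (751 pemetrexed and 341 cisplatin peaks, share ratio 1.91), 17 (639 and 301, 1.84), 16 (541 and 273, 1.71) and 22 (352 and 197, 1.55). These are among the most gene-dense and GC-rich human chromosomes. Together they held 43.3% of pemetrexed peaks (42.0 to 44.7%) and 24.4% of cisplatin peaks (23.1 to 25.6%).

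The 10 chromosomes higher in cisplatin were 2, 5, 6, 8, 10, 13, 15, 18, X and Y. For chromosome X the intervals of the shares overlapped. The ratio of pemetrexed to cisplatin share was 0.269 on chromosome 18, which is gene-poor, with 23 pemetrexed and 74 cisplatin peaks. It was 0.419 on chromosome 6 (78 and 161), 0.51 on chromosome 5 (102 and 173), 0.516 on chromosome 2 (188 and 315) and 0.531 on chromosome 13 (46 and 75). The other 10 autosomes lay between these bounds, chromosomes 7, 14 and 20 nearest to equal shares with ratios of 1.02, 1.03 and 0.991. Among autosomes, pemetrexed peaks per Mb of covered span ranged from 0.304 on chromosome 18 to 11.8 on chromosome 19, a 38.9-fold range. Cisplatin peaks ranged from 0.748 on chromosome 4 to 5.77 on chromosome 22, a 7.71-fold range. Chromosome X, with 0.149 and 0.446 per Mb, and chromosome Y, with 0 and 0.514, lay below these ranges. The values for chromosome X rest on 2 and 6 peaks and a span of only 13.5 Mb between its outermost peaks. They are therefore too high to set beside the autosomes. Both drugs thus had the most peaks per Mb on chromosomes 19 and 22, and the span between sparse and dense chromosomes was wider for pemetrexed.

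**Figure D2:**
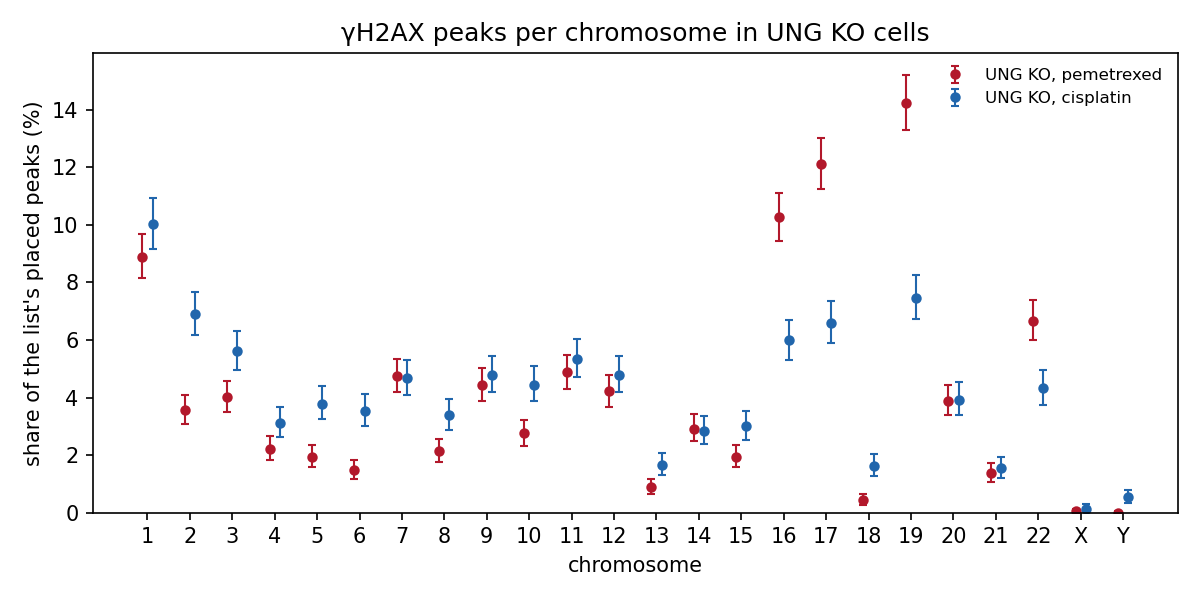
Share of each KO list's placed peaks (y axis, percent) on each chromosome (x axis), pemetrexed in red and cisplatin in blue, with 95% exact binomial intervals as bars. On chromosomes 16, 17, 19 and 22 the pemetrexed points stand above the cisplatin points with no overlap of the bars, and on chromosomes 2, 3, 5, 6, 8, 10, 13, 15, 18 and Y they stand below, also with no overlap.

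These shares depend on how neighbouring peaks are counted. With peaks of a list within 100 kb joined to 1 region, the pemetrexed list became 1200 regions and the cisplatin list 2784, a ratio of 0.431. The share on chromosomes 16, 17, 19 and 22 was then 23.6% and 17.4%, and chromosome 17 alone was higher in pemetrexed, with a ratio of 1.51. Chromosomes 5, 8, 13, 18 and Y remained higher in cisplatin.

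Pemetrexed peaks lay nearer to chromosome ends. Within 5 Mb of an end lay 36.9% of pemetrexed peaks (35.6 to 38.2%) and 19.1% of cisplatin peaks (17.9 to 20.2%). Within 1 Mb the shares were 15.2% and 5.81%. Both ends took part, the first 5 Mb with 18.2% of pemetrexed against 8.64% of cisplatin peaks and the last 5 Mb with 18.7% against 10.4%. The share near an end was larger for pemetrexed on 19 of 22 autosomes. The difference was largest on chromosome 8, 69.6% against 24.7%, followed by chromosome 4 with 63.2% against 25.4%. It was 64.9% against 30.8% on chromosome 14 and 62.7% against 36.3% on chromosome 16. On chromosomes 6, 15 and 18 the share was lower for pemetrexed (1.28, 2.94 and 13.04%) than for cisplatin (9.32, 6.57 and 16.2%). No list had a peak centred in the first 5 Mb of chromosome 6, so its first end was measured from further inside.

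The autosomes were then divided into 4 compartments, by ends and by the group of chromosomes 16, 17, 19 and 22. That group was chosen for its high pemetrexed share in these lists, so its higher ratios are a description and support nothing. At the ends of chromosomes 16, 17, 19 and 22, a span of 35.0 Mb, there were 1000 pemetrexed and 304 cisplatin peaks, 28.6 and 8.69 per Mb, a ratio of 3.29 (2.89 to 3.75). In the interior of those chromosomes the numbers were 1283 and 808, a ratio of 1.59 (1.45 to 1.74). At the ends of the other autosomes they were 946 and 540, a ratio of 1.75 (1.57 to 1.95). In the interior of the other autosomes, which made up 2340 Mb of span, pemetrexed had fewer peaks than cisplatin, 2041 against 2880, or 0.872 against 1.23 per Mb, a ratio of 0.709 (0.669 to 0.7503). Within both groups of chromosomes the ratio was higher at the ends than in the interior. Median pemetrexed width was 1438 and 1505 bp at the ends of the chosen and of the other chromosomes, and 1099 and 1026 bp in their interiors. Cisplatin medians differed little between the compartments, from 796 to 856 bp. With peaks within 100 kb joined, the share of regions near an end was 15.8% for pemetrexed (13.7 to 17.9%) and 14.4% for cisplatin (13.1 to 15.7%). These intervals overlapped, so most of the excess near ends was an excess of peaks per region.

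Pemetrexed peaks lay closer together. The median gap to the nearest peak of the same list was 8.72 kb after pemetrexed (quartiles 1.96 and 33.6 kb) and 71.7 kb after cisplatin (20.01 and 234 kb). Of the pemetrexed peaks, 17.7% had another within 1 kb and 52.3% within 10 kb. Of the cisplatin peaks, 3.20% and 16.1% did. Within 100 kb the shares were 88.4% (87.5 to 89.2%) and 57.1% (55.6 to 58.5%). The pemetrexed share within 100 kb was the larger on 22 of 22 autosomes, and without chromosomes 16, 17, 19 and 22 the shares were 83.2% and 51.04%. A longer list has closer peaks by its length alone, and these lists differed 1.15-fold in number.

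**Figure D3:**
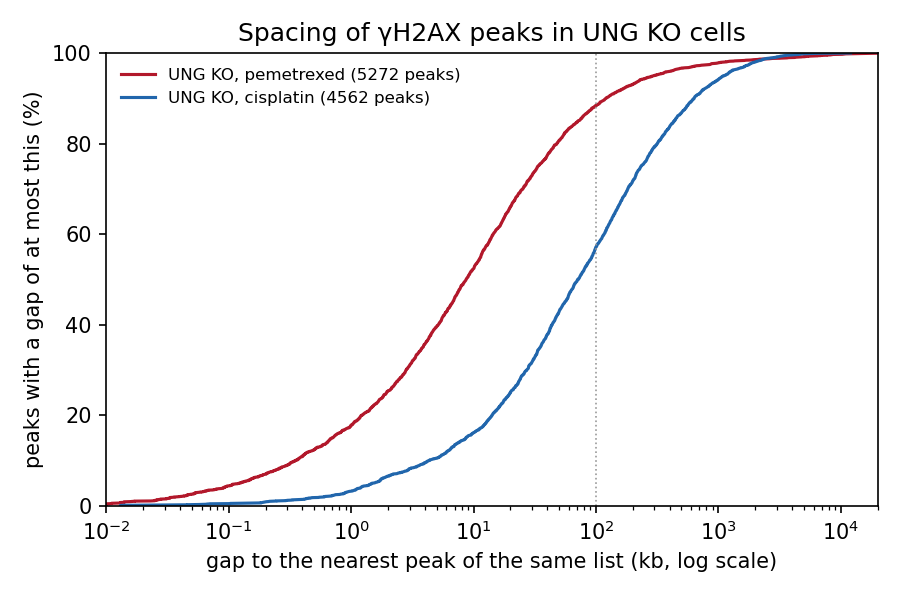
Share of peaks (y axis, percent) whose gap to the nearest peak of the same KO list is at most the value on the x axis (kb, log scale), pemetrexed in red and cisplatin in blue, with a dotted line at 100 kb. The pemetrexed curve lies to the left of the cisplatin curve up to gaps over 1 Mb, with medians of 8.72 and 71.7 kb.

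Width went with spacing in both lists, more steeply after pemetrexed. Pemetrexed peaks with a neighbour within 1 kb had a median width of 1567 bp (931 peaks), those with the nearest neighbour 10 to 100 kb away 1070 bp (1900 peaks), and those with none within 1 Mb 877 bp (115 peaks). The cisplatin medians were 851 bp (146 peaks), 838 bp (1871 peaks) and 707 bp (268 peaks). The ratio of the drugs' medians was 1.84 at the closest spacing and 1.24 for peaks with no neighbour within 1 Mb. Isolated pemetrexed peaks were thus still the wider ones, by less.

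Joined within 100 kb, pemetrexed peaks formed few and crowded regions and cisplatin peaks many sparse ones. Single peaks accounted for 614 of the 1200 pemetrexed regions and 1958 of the 2784 cisplatin regions. Regions of 10 or more peaks numbered 109 after pemetrexed and held 55.1% of its peaks (53.8 to 56.5%). After cisplatin there were 18, holding 4.82% (4.22 to 5.48%). The 109 pemetrexed regions spanned 52.9 Mb, 1.87% of the covered span, and peaks filled 11.3% of their length. The 18 cisplatin regions spanned 7.08 Mb and were filled to 2.97%.

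The region with the most pemetrexed peaks lay near the short-arm end of chromosome 19 (264201 to 2373511). It held 198 pemetrexed peaks over 2.11 Mb (93.9 per Mb), which covered 19.2% of it with a median width of 1482 bp, and 36 cisplatin peaks of median width 873 bp. Near the long-arm end of chromosome 16 (87746526 to 88601861), 97 pemetrexed peaks of median width 2280 bp filled 33.1% of 855 kb, with 11 cisplatin peaks, and at 113 per Mb they were the densest of the 5 regions named. At the other end of chromosome 16 (25140 to 1101317) there were 75 pemetrexed and 18 cisplatin peaks. The remaining 2 of the 5 regions with the most pemetrexed peaks lay on chromosome 19, with 75 and 27 peaks at 17913595 to 19601911 and with 71 and 16 at 3951004 to 5109352. All 5 therefore held cisplatin peaks as well, between 11 and 36.

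The region with the most cisplatin peaks, on chromosome 22 (36233617 to 37077393), held 21 of them over 844 kb (24.9 per Mb) and 31 pemetrexed peaks. The next lay inside the leading pemetrexed region of chromosome 19 (1769672 to 2237624), with 18 cisplatin and 62 pemetrexed peaks. On chromosome 16 (277605 to 734448) there were 13 and 34. On chromosome 8 (145064140 to 145350102), near its long-arm end, both drugs had 14 peaks, 48.96 per Mb, with median widths of 956 bp for cisplatin and 2178 bp for pemetrexed. Chromosome 19 (50613942 to 51107407) was the exception, with 14 cisplatin and 9 pemetrexed peaks. In 3 of these 5 regions, chosen for their cisplatin peaks, pemetrexed peaks were the more numerous.

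At the scale of 1 Mb windows cisplatin peaks occupied more of the genome than pemetrexed peaks. Of the 1945 windows with a peak in any of the 4 lists, 1529 (78.6%) held a cisplatin peak and 708 (36.4%) a pemetrexed peak. Of 1610 windows with a peak of either drug, 627 (38.9%) held both, 81 pemetrexed alone and 902 cisplatin alone. Thus 88.6% of the 708 pemetrexed windows held a cisplatin peak, and 41.0% of the 1529 cisplatin windows held a pemetrexed peak. The 2 shares differ because the totals of windows differ. Since the 1945 windows were kept for holding a peak of some list, 78.6% and 36.4% exceed the shares over all windows. The span of all placed chromosomes was 2825 Mb, which holds more windows than the 1945. Thus 88.6% and 41.0% lie further above the shares over all windows than above 78.6% and 36.4%. How much further was not measured. In all, 176 pemetrexed peaks (3.34%) lay in windows without cisplatin, against 1606 cisplatin peaks (35.2%) in windows without pemetrexed. The 82 windows that held 50.3% of the pemetrexed peaks held 17.4% of the cisplatin peaks. Of these 82 windows, 72 (87.8%) were also among the 290 windows with the most cisplatin peaks, where they made up 24.8%. Across the 1945 windows, Spearman's rho between the drugs' counts was 0.522, and 0.453 over the 1721 windows outside chromosomes 16, 17, 19 and 22. This is a description of 2 libraries whose windows share base composition and possibly a control.

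Windows differed in balance in both directions. Among 503 windows with at least 5 KO peaks, 91 (18.1%) held at least 3 times as large a share of the pemetrexed as of the cisplatin list, and 98 (19.5%) the reverse. In windows of 2 Mb the balance was 39 against 107. Of the 91, 35 lay on chromosomes 16, 17, 19 and 22 and 7 held no cisplatin peak. Of the 98, 19 lay on those chromosomes and 36 held no pemetrexed peak. The number of the 503 windows on those chromosomes was not counted, and the group was chosen for its pemetrexed share. Neither 35 nor 19 therefore shows an excess or a lack there. The windows with the largest pemetrexed excess were 1 to 2 Mb of chromosome 19 (97 pemetrexed and 20 cisplatin peaks), 88 to 89 Mb of chromosome 16 (65 and 9), the first Mb of chromosome 16 (71 and 16), the first Mb of chromosome 19 (60 and 10) and 1 to 2 Mb of chromosome 1 (59 and 10), which was tied by 87 to 88 Mb of chromosome 16 (54 and 5). All of these touch the first or last few Mb of a chromosome.

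The windows with the largest cisplatin excess were smaller in count and lay mostly away from ends. They were 12 to 13 Mb of chromosome Y (16 cisplatin and 0 pemetrexed peaks), 38 to 39 Mb of chromosome 10 (12 and 0), 42 to 43 Mb of chromosome 21 (11 and 1), 43 to 44 Mb of chromosome 6 (14 and 5) and 27 to 28 Mb of chromosome 2 (11 and 3). The last was tied by 131 to 132 Mb of chromosome 9 (11 and 3) and 50 to 51 Mb of chromosome 12 (12 and 4). As background, the windows on chromosomes Y and 10 are close to centromeres. Chromosome Y held 24 cisplatin peaks in all and 0 of 5278 pemetrexed peaks, which allows a share of up to 0.0568%. Of the 24, 16 fell into 2 groups at 12112464 to 12166409 (6 peaks) and 12308510 to 12373756 (10 peaks).

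**Figure D4:**
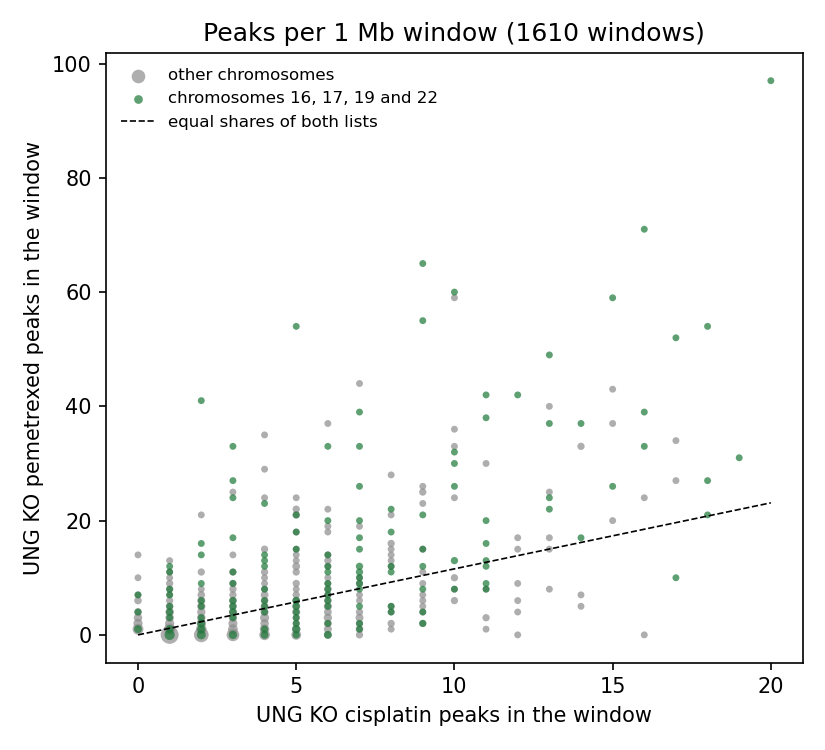
Number of KO pemetrexed peaks (y axis) against KO cisplatin peaks (x axis) in each of the 1610 windows of 1 Mb with a peak of either drug, green for chromosomes 16, 17, 19 and 22, grey for the others, with larger points where more windows coincide. Points far above the dashed line of equal list shares reach 97 pemetrexed peaks, while no window exceeds 20 cisplatin peaks.

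Few peaks of the drugs coincided exactly. At a minimum overlap of 1 bp, 329 pemetrexed peaks (6.24%, 5.60 to 6.93%) met 334 cisplatin peaks (7.32%, 6.58 to 8.12%) in 339 pairs, and 4943 and 4228 peaks met none. The pemetrexed peaks covered 0.317% of the 2825 Mb span and the cisplatin peaks 0.141%. The shared bases, 263 kb, were 2.93% of the pemetrexed and 6.58% of the cisplatin bases. Where peaks met, the pemetrexed peak was the wider in 300 of 339 pairs (88.5%), and in 180 pairs (53.1%) the cisplatin peak lay wholly inside it. The reverse was so in 8 pairs. The centres were a median of 362 bp apart (quartiles 114 and 736 bp). With a reciprocal overlap of 50% the shares fell to 2.67% of pemetrexed and 3.09% of cisplatin peaks.

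Shared sites went with width in both lists, and with place and crowding more clearly among cisplatin than among pemetrexed peaks. Cisplatin peaks on chromosomes 16, 17, 19 and 22 met a pemetrexed peak in 15.1% of cases (13.1 to 17.3%) and those elsewhere in 4.81% (4.12 to 5.58%). Within 5 Mb of an end the share was 15.9% (13.5 to 18.5%) and in the interior 5.31% (4.61 to 6.08%). Cisplatin peaks with a cisplatin neighbour within 100 kb met a pemetrexed peak in 10.9% of cases (9.73 to 12.2%), those without one in 2.55% (1.90 to 3.35%), and 1 of the 268 with none within 1 Mb did. Cisplatin peaks above the upper quartile of width had a share of 11.1% (9.32 to 13.1%), and those up to the lower quartile 4.19% (3.11 to 5.52%). A wider peak has more bases with which to meet another. Place has a like limit, since chromosomes 16, 17, 19 and 22 were chosen for their pemetrexed peaks. Pemetrexed peaks covered 1.18 to 1.96% of the span of each of these chromosomes and at most 0.553% of any other. They were also denser near ends, 5.91 against 0.872 per Mb on the other autosomes. The higher cisplatin shares by place and crowding therefore do not show that sites coincide more than this density allows. Of the pemetrexed peaks, 10.3% of those above the upper quartile (8.74 to 12.1%) and 3.49% of those up to the lower (2.56 to 4.62%) met a cisplatin peak. By place the pemetrexed shares lay closer together, 7.36% on chromosomes 16, 17, 19 and 22 (6.32 to 8.51%) against 5.39% elsewhere (4.60 to 6.26%). They were 7.04% near an end (5.94 to 8.27%) against 5.77% in the interior (5.004 to 6.62%), with overlapping intervals. With a pemetrexed neighbour within 100 kb the share was 6.50% (5.81 to 7.25%) and without one 4.23% (2.78 to 6.14%), where the intervals also overlapped. On chromosomes 13 and 18 no peak was shared.

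The longest overlap was 2347 bp on chromosome 11, where a cisplatin peak (982185 to 984532) lay wholly inside a pemetrexed peak of 5478 bp (979199 to 984677). On chromosome 9 a pair of nearly equal peaks, 2020 bp for pemetrexed (129711734 to 129713754) and 2133 bp for cisplatin, shared 2012 bp. A second pair on that chromosome shared 1712 bp (pemetrexed 135228055 to 135230515). On chromosome 19, pemetrexed peaks at 1862737 to 1866788 and 18666786 to 18672980 each enclosed a cisplatin peak, with 1839 and 1693 shared bases. Neither WT list had a peak at any of these 5 pemetrexed sites, which is usual for this list. Of all 5272 KO pemetrexed centres, WT pemetrexed peaks covered 8 (0.152%) and WT cisplatin peaks 35 (0.664%).

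Beyond exact overlap, the drugs' peaks were neighbours. A pemetrexed peak had a median gap of 36.2 kb to the nearest cisplatin peak, and 77.2% (76.04 to 78.3%) had one within 100 kb. A cisplatin peak had a median gap of 139 kb to the nearest pemetrexed peak, and 45.6% (44.1 to 47.05%) had one within 100 kb. The centre of a cisplatin peak was covered by a pemetrexed peak in 6.16% of cases. Positions 5 kb to either side were covered in 2.39%, positions 100 kb away in 1.82%, 1 Mb away in 1.22% and 5 Mb away in 0.504%. Coverage thus fell by a larger step within the first 5 kb than between 5 and 100 kb, and stayed above the 0.317% of the span as a whole at every distance measured. Around pemetrexed centres, coverage by cisplatin peaks was 3.81% at the centre, 1.24% at 5 kb, 0.901% at 100 kb, 0.616% at 1 Mb and 0.152% at 5 Mb, against 0.141% of the span.

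**Figure D5:**
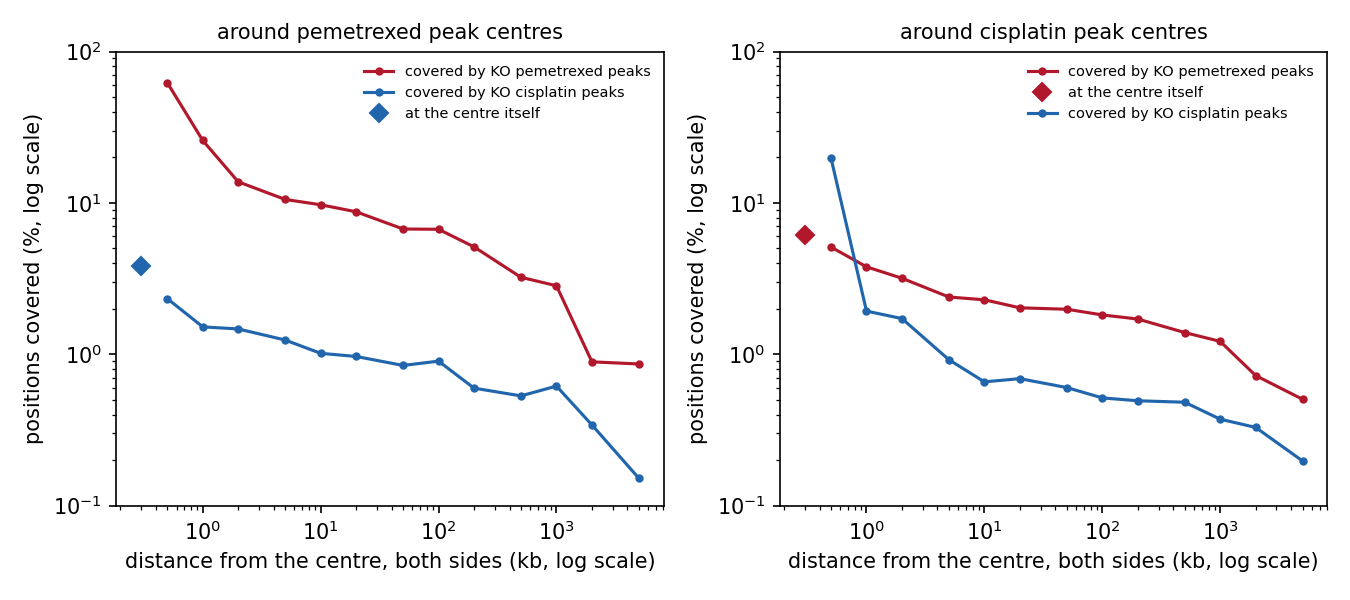
Percent of positions (y axis, log scale) covered by KO pemetrexed peaks (red) and KO cisplatin peaks (blue) at set distances to both sides (x axis, kb, log scale) of pemetrexed peak centres (left) and cisplatin peak centres (right). Diamonds, drawn at the left edge of each panel, give coverage by the other drug at the centre itself, 3.81% and 6.16%, which is above the coverage at 5 kb, 1.24% and 2.39%.

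Inside the 109 pemetrexed regions of 10 or more peaks, cisplatin peaks were dense but did not follow each pemetrexed peak. These regions held the centres of 637 cisplatin peaks, 12.03 per Mb, against 1.42 per Mb outside. Of these centres, 187 (29.4%, 25.8 to 33.1%) lay on a pemetrexed peak, where pemetrexed peaks took 11.3% of the length. The other direction gave a like picture. The 124 cisplatin regions of 5 or more peaks held the centres of 820 pemetrexed peaks, 31.7 per Mb, against 1.59 per Mb outside, and 91 of them (11.1%, 9.03 to 13.4%) lay on a cisplatin peak, where cisplatin peaks took 3.14% of the length.

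In WT cells the drug contrast ran the other way in the number of peaks as listed, in covered bases and in median width. There 924 pemetrexed peaks stood against 1807 cisplatin peaks, a ratio of 0.511, and the KO ratio was 2.26 times the WT ratio (conditional exact interval 2.07 to 2.47, counting error only). The sign of this contrast depends on how neighbouring peaks are counted. With peaks within 100 kb joined, WT cells had 849 pemetrexed and 1490 cisplatin regions, a ratio of 0.57, so that both genotypes were below 1 and KO cells, at 0.431, were the lower. Bases covered were 0.559 Mb and 1.21 Mb, and median widths 585 and 623 bp, a ratio of 0.939. In the 4 compartments the WT ratio of pemetrexed to cisplatin peaks was 0.19 at the ends of chromosomes 16, 17, 19 and 22 (22 and 116 peaks). It was 0.385 in their interiors (112 and 291), 0.416 at the ends of the other autosomes (82 and 197) and 0.58 in their interiors (695 and 1199). No intervals were computed for these WT ratios, and 0.385 and 0.416 lay close together. The order of the compartments was thus nearly the reverse of that in KO cells, where the ratios were 3.29, 1.59, 1.75 and 0.709. No difference between the genotypes was tested across samples. Since each of the 4 values comes from 1 library, genotype and library cannot be told apart.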

How the data were processed

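The series holds 6 γH2AX ChIP-seq libraries of DLD1 cells, 1 per group, with groups read from the titles. The authors deposited 4 peak lists, and per the file headers a row gives chromosome, start and end, positions in bp and no other value. Per the submitters' processing notes the tools were Bowtie (no version) and MACS 1.4, and the build was hg18. The sources used here do not state which library served as control, nor the threshold and filters. Starts may count from 0 or 1, so positions may be off by 1 bp.

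Width was taken as end minus start. Analyses of place, spacing and overlap omit peaks on unplaced contigs. Gaps, joins at 100 kb, overlaps of at least 1 bp and counts in 1 Mb windows by peak centre were computed in Python 3.11.15 with numpy 2.4.6, pandas 2.3.3 and scipy 1.17.1, and the functions were tested on simulated lists with known answers. Shares and ratios of numbers have exact 95% intervals, and no test across samples was possible with 1 library per group. The limit of a count of 0 is 3 counts of the list. These intervals and limits cover counting error only. Depth per library is unknown.

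Named regions were the 5 widest peaks of each KO list and its 5 joined regions with the most peaks, the 5 windows of largest excess each way (ties at the fifth place are named) and the 5 longest overlaps. The lists compared, the group of chromosomes 16, 17, 19 and 22, and the rules were chosen with earlier results of these data known. The gene table at hand was for another build and was not used, and no sequence was read.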

Additional observations from a re-analysis of the deposited data

Results flagged for a closer look

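The drug ratio of peak numbers differed between the genotypes by a factor of 2.26, KO over WT (conditional exact 95% interval 2.07 to 2.47), with 1 library behind each of the 4 numbers. With peaks within 100 kb joined, a setting chosen after seeing the data, the factor was 0.756, so the difference turned round. 3 further measures pointed in opposite directions in KO and WT cells, and these differences were not tested. The share of peaks on chromosomes 16, 17, 19 and 22 was 18.9 percentage points higher for pemetrexed than for cisplatin in KO cells, and the difference in WT cells was -7.92 points. Joined within 100 kb these were 6.20 and -6.81 points, and the chromosomes were chosen for their share in the KO pemetrexed list. For the share within 5 Mb of a chromosome end the differences were 17.8 points in KO and -5.55 in WT, and 1.38 and -3.54 when joined. For the share of peaks that had a same-list neighbour at 100 kb or less they were 31.3 points in KO and -17.5 in WT, where longer lists also have closer peaks.

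Peaks on unplaced contigs, which enter none of the analyses of place, numbered 6 in the KO pemetrexed list and 8 in the KO cisplatin list. Both numbers are above the 3 counts that a count of 0 allows.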

How the results depend on the processing

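Of 45 alternative values for 17 results, 2 stayed within the interval of the main value or within 1.5 times of a count, 39 moved and 4 reversed. The ratios of covered bases, of median widths and between the genotypes had no interval here, so they could only count as moved or reversed. Other alternatives, such as another distance or window size, change the quantity itself. The tally is therefore no measure of robustness. The cause of a change was not tested. Values are pemetrexed over cisplatin, or pemetrexed then cisplatin. The ratio of peak numbers turned below 1 with peaks within 10 kb joined (0.815), within 100 kb joined (0.431) and without chromosomes 16, 17, 19 and 22 (0.866). It was 1.27 with peaks of at least 600 bp and 3.65 with at least 1000 bp. The factor between the KO and WT ratios, 2.26, was 0.756 with peaks within 100 kb joined, an alternative chosen after seeing the data. The ratio of covered bases was 2.38 and 6.02 with those widths, 1.63 without chromosomes 16, 17, 19 and 22, and 2.79 with peaks within 10 kb joined and gaps counted. The ratio of median widths was 1.39 without these chromosomes, 1.58 with peaks within 10 kb joined and 1.22 among peaks with no other within 100 kb.

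The share on chromosomes 16, 17, 19 and 22 was 23.6 and 17.4% with peaks within 100 kb joined, and at a width of 1000 bp or more 45.9 and 31.9%. Chromosomes higher in pemetrexed numbered 1 when joined and 2 at that width, and those higher in cisplatin 5 when joined. The share near an end was 24.8 and 10.1% at 2 Mb, 47.0 and 29.2% at 10 Mb, and 15.8 and 14.4% when joined. The share with a neighbour was 52.3 and 16.1% at 10 kb, 97.8 and 94.1% at 1 Mb, and 83.2 and 51.04% without chromosomes 16, 17, 19 and 22. These 3 shares were higher for pemetrexed in each setting, but for the share near an end when joined the intervals overlapped (13.7 to 17.9% and 13.1 to 15.7%). The share that met the other drug was 2.67 and 3.09% at a reciprocal overlap of 50%, 24.1 and 20.2% with a gap of at most 10 kb, 3.03 and 10.96% at widths of 1000 bp or more, and 5.39 and 4.81% without chromosomes 16, 17, 19 and 22. Windows with both drugs made up 22.2% at 100 kb and 60.7% at 5 Mb. Windows with at least 3 times the pemetrexed share numbered 39 at 2 Mb, against 107 with at least 3 times the cisplatin share. No paired analysis was possible because each drug has a single KO library, and for that reason no replicate could be left out. Depth limits all of these values, since it is unknown.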

Other observations

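Cisplatin peaks were denser around pemetrexed peaks than around other cisplatin peaks at the distances of 5 kb and more that were measured, except at 5 Mb. Positions 10 kb from a pemetrexed centre were covered by a cisplatin peak in 1.01% of cases, and positions 10 kb from a cisplatin centre in 0.658%. At 100 kb the values were 0.901 and 0.515%, at 1 Mb 0.616 and 0.373%, and at 5 Mb 0.152 and 0.197%. At 1 and 2 kb the order was the other way, at 1 kb 1.52 and 1.93% and at 2 kb 1.47 and 1.72%. The width of the cisplatin peak itself enters at 1 kb. At 2 kb few cisplatin peaks are wide enough for this, since the fifth widest spanned 4407 bp.

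The longest run of pemetrexed peaks with no cisplatin peak between them was 39 peaks over 1.01 Mb of chromosome 3 (47526552 to 48536684). The longest run of cisplatin peaks with no pemetrexed peak between them was 32 peaks over 34.9 Mb of chromosome 10 (35721292 to 70665747). Both were picked out after their values were seen.

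Places with KO cisplatin peaks and few or no KO pemetrexed peaks held WT pemetrexed peaks and no WT cisplatin peaks in 3 of the 5 windows of largest cisplatin excess, and in neither of the windows tied for the fifth place. These were chromosome Y at 12 to 13 Mb (16 KO cisplatin and 2 WT pemetrexed peaks), chromosome 10 at 38 to 39 Mb (12 and 4) and chromosome 21 at 42 to 43 Mb (11 and 2). Over all of chromosome Y the lists held 24 KO cisplatin, 5 WT pemetrexed, 0 KO pemetrexed and 0 WT cisplatin peaks. This pattern rests on few peaks, in windows picked for their KO counts, and was not tested. Many other windows also held WT pemetrexed and no WT cisplatin peaks. Their share was not counted, so no excess in the windows named here is shown.

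Chromosome X was nearly empty in both KO lists, with 2 of 5278 pemetrexed and 6 of 4570 cisplatin peaks, 0.0379 and 0.131%, and the WT lists held 0 and 2. Whether a filter left out rows of this chromosome is not known.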
